A study of Mus musculus with 14 samples.

Results

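Nearly all mitochondrial proteins are made in the cytosol and enter the organelle through a set of translocases, chaperones and peptidases. The genes of that import machinery were read across primary murine erythroid progenitors that had been challenged with EPO or left unchallenged. The members were all probe sets (a group of spots on the array that reads 1 transcript) that name 1 gene alone whose symbol begins with Timm or Tomm, or is Chchd4, Gfer, Grpel1, Grpel2, Hspa9, Hspd1, Hspe1, Dnajc19, Mtx1, Mtx2, Samm50, Pmpca, Pmpcb, Immp1l or Immp2l. This gave 75 probe sets of 37 genes, out of 45037 probe sets tested and 18193 genes named alone. No probe set names Dnajc19, Immp2l, Tomm5 or Tomm6 alone, and another 6 probe sets that name a gene of the rule together with a second gene were kept apart. By the array's own suffixes, 12 of the 75 member probe sets are of the x_at and 6 of the s_at kind, which can match transcripts of more than 1 gene, and their values are less certain.

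Preproteins first meet the TOM complex of the outer membrane, where Tomm20, Tomm22 and Tomm70a act as receptors and Tomm40 forms the channel. From there, proteins with a cleavable presequence pass through the TIM23 translocase and are pulled inward by a motor built around the Hsp70 protein Hspa9. Carrier proteins are guided across the intermembrane space by small Tim chaperones to the TIM22 translocase, and beta-barrel proteins are handed to the SAM complex. The small Tim proteins are themselves imported by a disulfide relay in which Chchd4 oxidizes its substrates and Gfer oxidizes Chchd4. In the matrix, peptidases remove presequences, and the chaperonin of Hspd1 and Hspe1 folds the new proteins. Developing red cells depend on this traffic because several enzymes of heme synthesis work inside mitochondria.

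All samples were cells from femur and tibia marrow of female wild-type C57Bl/6 mice aged 8 to 12 weeks, expanded ex vivo in SP34ex medium and measured on 14 Affymetrix mouse arrays. Stage E1, CFUe-like progenitors, was taken at culture day 3 per the labels (the methods give day 3.5) after removal of Lin+ cells and selection for Kit and CD71. Stage E2, proerythroblasts, was taken at day 3.5 after Lin+ cells and Kit+ cells had both been removed and CD71+ cells selected. Each preparation was held without hematopoietic cytokines for 5.5 h before a 90 min challenge, either with 4 U/mL EPO or with no EPO. There were 4 unchallenged and 4 EPO-challenged arrays of stage E1 and 3 of each of stage E2, described as biological replicates. Nothing else ties a given replicate to particular mice, so the p-values measure the spread between these cultures.

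Every deposited value is a log2 value from which a constant of its probe set was removed. Levels could therefore not be read or compared between genes, while differences between arrays for the same probe set could. The number of arrays limits the precision. Across the probe sets, which do not count as replicates, arrays of a group correlated with a Pearson's r of 0.768 to 0.912 in stage E1 and 0.719 to 0.823 in stage E2, and no array stood apart from its group. The known EPO response genes, Cish, Pim1, Socs3 and Podxl, were each called higher with EPO on at least 1 probe set in both stages. Blocked by replicate number, the E1 calls of Cish and Podxl held and those of Pim1 and Socs3 did not (limma adjusted p at best 0.099 and 0.054). Of 65 probe sets on the erythroid, B cell, T cell, myeloid, megakaryocyte and mast cell marker lists, limma called 0 with EPO in either stage (4 in E1 and 7 in E2 at an unadjusted p under 0.05). The labels give no scan date, so a batch could not be examined.

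Import genes that were called higher with EPO in both stages were Timm9, Timm10, Timm8a1 and Chchd4. Timm9 and Timm10 form the hexameric chaperone of carrier proteins, Timm8a1 belongs to the second small Tim chaperone, and Chchd4 is the oxidoreductase that brings all of these into the intermembrane space. Their start regions are printed here because these genes moved together. They are RefSeq sequences of the build GRCm38.p6, running 5′ to 3′ on the gene's own strand from 250 bases before to 50 bases after the gene's start, with every CACGTG (the E-box core, which reads the same on both strands and is bound by factors of the MYC and USF kind) in capitals. Timm9 lies at chr12:71136626-71136925 on the minus strand, Timm10 at chr2:84826771-84827070 on the plus strand, Timm8a1 at chrX:134541621-134541920 on the minus strand and Chchd4 at chr6:91473374-91473673 on the minus strand.
Timm9: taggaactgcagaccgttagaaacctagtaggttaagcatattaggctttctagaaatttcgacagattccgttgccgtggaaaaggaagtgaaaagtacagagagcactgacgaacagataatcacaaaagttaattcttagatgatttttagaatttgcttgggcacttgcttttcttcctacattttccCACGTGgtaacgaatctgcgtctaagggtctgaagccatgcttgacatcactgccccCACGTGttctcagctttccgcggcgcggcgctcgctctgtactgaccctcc
Timm10: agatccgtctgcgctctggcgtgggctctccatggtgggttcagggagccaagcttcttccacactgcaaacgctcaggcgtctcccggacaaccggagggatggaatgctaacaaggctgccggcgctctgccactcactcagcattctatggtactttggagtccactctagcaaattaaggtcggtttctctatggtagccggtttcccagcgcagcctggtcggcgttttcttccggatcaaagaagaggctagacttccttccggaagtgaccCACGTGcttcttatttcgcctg
Timm8a1: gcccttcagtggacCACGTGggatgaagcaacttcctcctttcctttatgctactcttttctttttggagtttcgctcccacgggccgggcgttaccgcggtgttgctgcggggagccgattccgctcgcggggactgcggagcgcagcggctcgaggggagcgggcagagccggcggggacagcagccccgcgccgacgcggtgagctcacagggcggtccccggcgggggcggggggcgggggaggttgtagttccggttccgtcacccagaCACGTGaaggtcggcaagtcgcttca
Chchd4: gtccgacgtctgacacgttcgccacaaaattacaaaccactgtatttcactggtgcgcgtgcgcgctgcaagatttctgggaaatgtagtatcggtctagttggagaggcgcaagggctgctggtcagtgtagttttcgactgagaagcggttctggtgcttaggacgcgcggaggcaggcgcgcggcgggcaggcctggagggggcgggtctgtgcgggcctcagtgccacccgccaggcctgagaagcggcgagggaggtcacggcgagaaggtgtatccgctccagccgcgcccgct

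The start region of Timm9 held CACGTG at 58 bases and at 1 base before the start, that of Timm10 at base 29 after it, and that of Timm8a1 at 236 bases before and at base 25 after it, while the region of Chchd4 held none. Start regions were at hand for 32 of the 37 member genes (not for Grpel2, Hspa9, Timm21, Tomm40l and Tomm7). CACGTG was found in 6 of the 32 (18.8%), namely Hspd1, Timm10, Timm8a1, Timm9, Tomm20 and Tomm20l, against 8.09% of all 27025 genes with such a region. The STAT-type letters TTCNNNGAA, which also read the same on both strands, stood in 3 of 32 (9.38%, against 9.55% of all genes), among them Chchd4 at 176 bases before its start. The ETS-type letters CCGGAAG, on either strand, stood in 17 of 32 (53.1%, against 9.93% of all genes and 12.9% of protein-coding genes), and the ATF4-type letters TGATGNAA on either strand in none of 32 (against 4.51%). These motifs were picked with the changes already known, and the matches describe letters in these windows and nothing about binding.

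Chchd4 read 0.14, -0.11, 0.29 and 0.22 on the unchallenged E1 arrays and 2.12, 2.01, 2.15 and 2.15 on the EPO-challenged ones. The groups were well apart, and the change was 3.93-fold (log2 change 1.97 ± 0.09, where ± gives the SE of a log2 change throughout, limma adjusted p = 0.00063). For Timm9, the unchallenged E1 arrays read 0.12, 0.15, 0.03 and -0.11 on probe set 1428010_at, and the EPO-challenged arrays 2.35, 2.33, 2.45 and 2.31. This was the largest change with EPO among the members in stage E1, at 4.96-fold (log2 change 2.31 ± 0.06, limma adjusted p = 7.4e-05). The other Timm9 probe set, 1449886_a_at, also kept the groups apart, with 0.33, -0.31, 1.13 and 0.93 against 2.49, 2.40, 2.12 and 1.96, with a wider spread within them, and did not pass (log2 change 1.72 ± 0.33, limma adjusted p = 0.078). Timm10 went from -1.53, -0.91, -0.90 and -1.12 to 0.29, 0.69, 0.52 and 0.65, a 3.15-fold rise (log2 change 1.65 ± 0.16, limma adjusted p = 0.0080). Timm8a1 had the narrowest spread of the 4 genes without EPO, with 0.89, 0.85, 0.85 and 0.78 on 1416345_at, and read 1.55, 1.84, 1.71 and 1.71 with EPO. That rise was 1.81-fold (log2 change 0.86 ± 0.06, limma adjusted p = 0.0032), and its call ended in the fit blocked by replicate number (limma adjusted p = 0.068), while the other 3 calls held. The other Timm8a1 probe set, 1416346_at, did not pass (log2 change 0.77, limma adjusted p = 0.065).

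**Figure D1:**
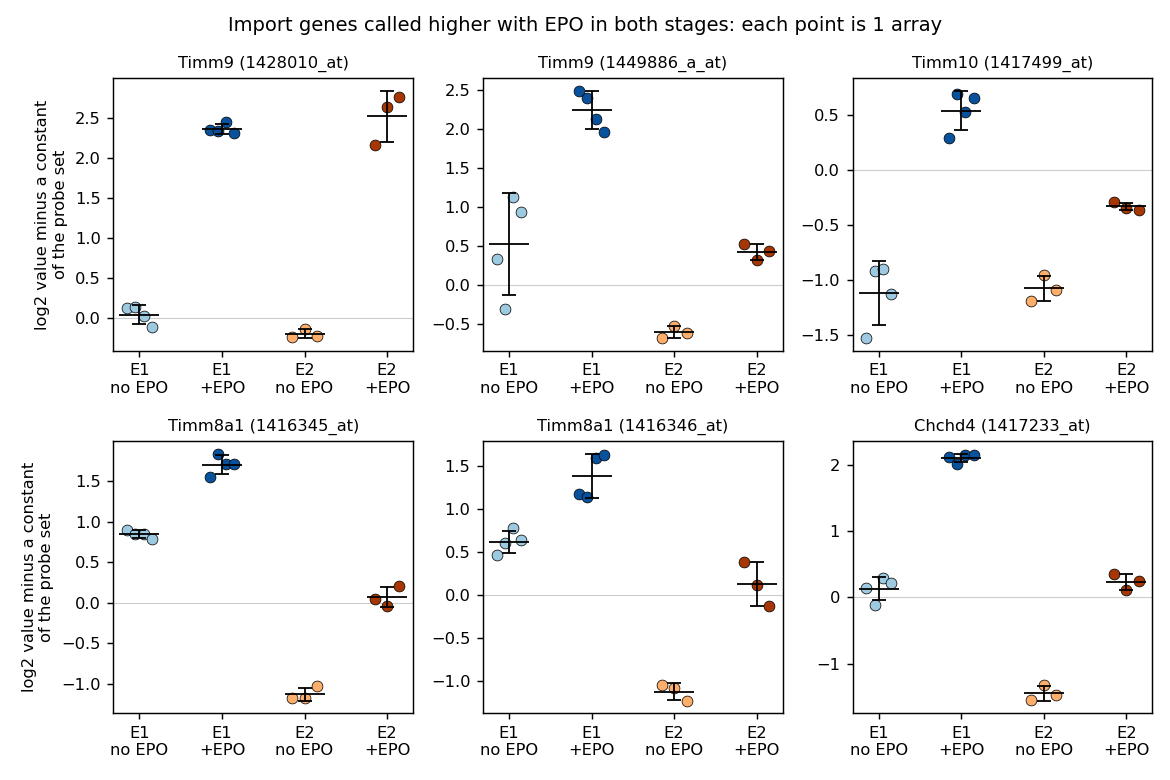
Values of the 6 probe sets of Timm9, Timm10, Timm8a1 and Chchd4 on all 14 arrays. The vertical axis is the deposited log2 value, from which a constant of the probe set has been removed, the horizontal axis gives the groups, each point is an array, and the bars show the mean and SD (4 arrays a group in E1, 3 in E2). In every panel and both stages the EPO-challenged points lie above the unchallenged ones with no overlap.

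In stage E1, 4 of the 75 member probe sets (5.33%) were called higher and 0 lower, where 0.804% of all probe sets were called higher and 0.36% lower. Called means a Benjamini-Hochberg adjusted p under 0.05 over all 45037 probe sets, from limma. At an unadjusted p under 0.05, 16 member probe sets were higher and 1 was lower, the inner membrane peptidase subunit Immp1l (log2 change -0.17). Of all 45037 probe sets, 2262 were higher and 1720 lower at that threshold. The t-test of the methods after adjustment also gave 4 higher and 0 lower, whereas quantile normalization gave 4 higher and 1 lower (Immp1l). The median change over the members was 0.16 on the log2 scale, beside -0.0047 over all probe sets. Of the 75, 54 lay above 0, where 39% of all probe sets did. Outside the 4 genes, the remaining 69 probe sets ranged from -0.27 to 1.22 in log2 change. At the upper end of that range stood the receptor gene Tomm70a (1434243_s_at, log2 change 1.22 ± 0.48), Tomm20 (1435187_at, 0.94, SE 0.44) and the channel gene Tomm40 (0.89, SE 0.42), none of which passed (limma adjusted p 0.50, 0.66 and 0.67) and whose groups overlapped.

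In stage E2 proerythroblasts, 11 probe sets of 8 genes (14.7% of the 75) were called higher with EPO and 1 was called lower. Of all probe sets, 2.54% were called higher and 2.08% lower. The median change of the members was 0.05 on the log2 scale, beside -0.0049 over all probe sets. Of the 75, 49 lay above 0, where 37% of all probe sets did. The SD between replicates was narrower than in E1 (median over all probe sets 0.0317 and 0.0343, against 0.0934 and 0.0729), so that smaller changes passed. Without EPO-challenged replicate 2, 7 members were called and all 7 were higher.

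The same 4 genes led in stage E2. Timm9 (1428010_at) rose 6.54-fold, from -0.23, -0.13 and -0.22 to 2.16, 2.63 and 2.76 (log2 change 2.71 ± 0.17, limma adjusted p = 0.0044). Its other probe set went from -0.68, -0.53 and -0.62 to 0.52, 0.31 and 0.43 and also passed (log2 change 1.03 ± 0.07, limma adjusted p = 0.0049), but not in the fit on all 14 arrays (0.15). Chchd4 read -1.55, -1.32 and -1.47 without EPO and 0.35, 0.11 and 0.25 with it, a 3.22-fold rise (log2 change 1.69 ± 0.09, limma adjusted p = 0.0030). For each of these probe sets the gap between the groups exceeded the range within either. Quantile normalization, which widens the values of E2 arrays, kept these calls but gave larger log2 changes (4.27 for Timm9 1428010_at and 3.53 for Chchd4). Timm8a1 (1416345_at) went from -1.18, -1.18 and -1.03 to 0.04, -0.04 and 0.21, a 2.29-fold rise (log2 change 1.20 ± 0.08, limma adjusted p = 0.0051). The second Timm8a1 probe set had a similar size (log2 change 1.25 ± 0.15, limma adjusted p = 0.020) but lost its call without any single unchallenged replicate or without EPO-challenged replicate 2 (limma adjusted p 0.065 to 0.083). Timm10 rose 1.67-fold, from -1.18, -0.95 and -1.08 to -0.29, -0.34 and -0.36 (log2 change 0.74 ± 0.06, limma adjusted p = 0.010).

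The other calls in stage E2 were smaller and fell in other steps of the pathway. Gfer, the sulfhydryl oxidase that keeps Chchd4 active, went from -0.53, -0.54 and -0.52 to 0.08, 0.02 and -0.02 on 1426995_a_at, a 1.47-fold rise (log2 change 0.55 ± 0.03, limma adjusted p = 0.0028). The call ended in the fit on all 14 arrays, which shares the wider spread of stage E1 (limma adjusted p = 0.73). Its second probe set did not pass (log2 change 0.04, limma adjusted p = 0.86). In stage E1 the same Gfer probe set had a log2 change of 0.16 with a wide error (SE 0.33), and 1 unchallenged array read 2.25 where the others read 1.08 to 1.24. Pmpca, the substrate-binding subunit of the matrix processing peptidase, rose 1.29-fold on 1 of its 2 probe sets, from -0.20, -0.19 and -0.21 to 0.16, 0.12 and 0.24 (log2 change 0.37 ± 0.03, limma adjusted p = 0.011). That call ended without unchallenged replicate 2 (limma adjusted p = 0.051). Timm23, the channel of the presequence translocase, read -0.34, -0.33 and -0.37 without EPO and 0.14, 0.06 and -0.06 with it (1.31-fold, log2 change 0.39 ± 0.05, limma adjusted p = 0.029). Leaving out any array but EPO-challenged replicate 3 ended its call (limma adjusted p 0.056 to 0.106).

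Hspa9, the motor Hsp70, passed on 2 of its 5 probe sets. On 1447728_x_at the arrays went from -0.35, -0.47 and -0.39 to -0.09, -0.03 and -0.05 (log2 change 0.35 ± 0.03, limma adjusted p = 0.014), and the call ended without unchallenged replicate 3 or EPO-challenged replicate 2 or 3 (limma adjusted p 0.053 to 0.057) and in the fit on all 14 arrays (0.71). On 1418504_at they went from -0.29, -0.28 and -0.16 to 0.02, 0.04 and -0.02 (log2 change 0.26 ± 0.04, limma adjusted p = 0.049), and the call held among single left-out arrays only without unchallenged replicate 3 (limma adjusted p 0.113 to 0.157 without each of the other 5). Timm44, the motor's anchor at the inner membrane, gave the sole call in the other direction. It read 0.04, 0.01 and -0.01 without EPO and -0.15, -0.22 and -0.29 with EPO on 1417670_at (1.17-fold lower, log2 change -0.23 ± 0.04, limma adjusted p = 0.048). The 2 other Timm44 probe sets did not pass, and this call ended without any unchallenged replicate or without EPO-challenged replicate 2 or 3 (limma adjusted p 0.072 to 0.152).

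**Figure D2:**
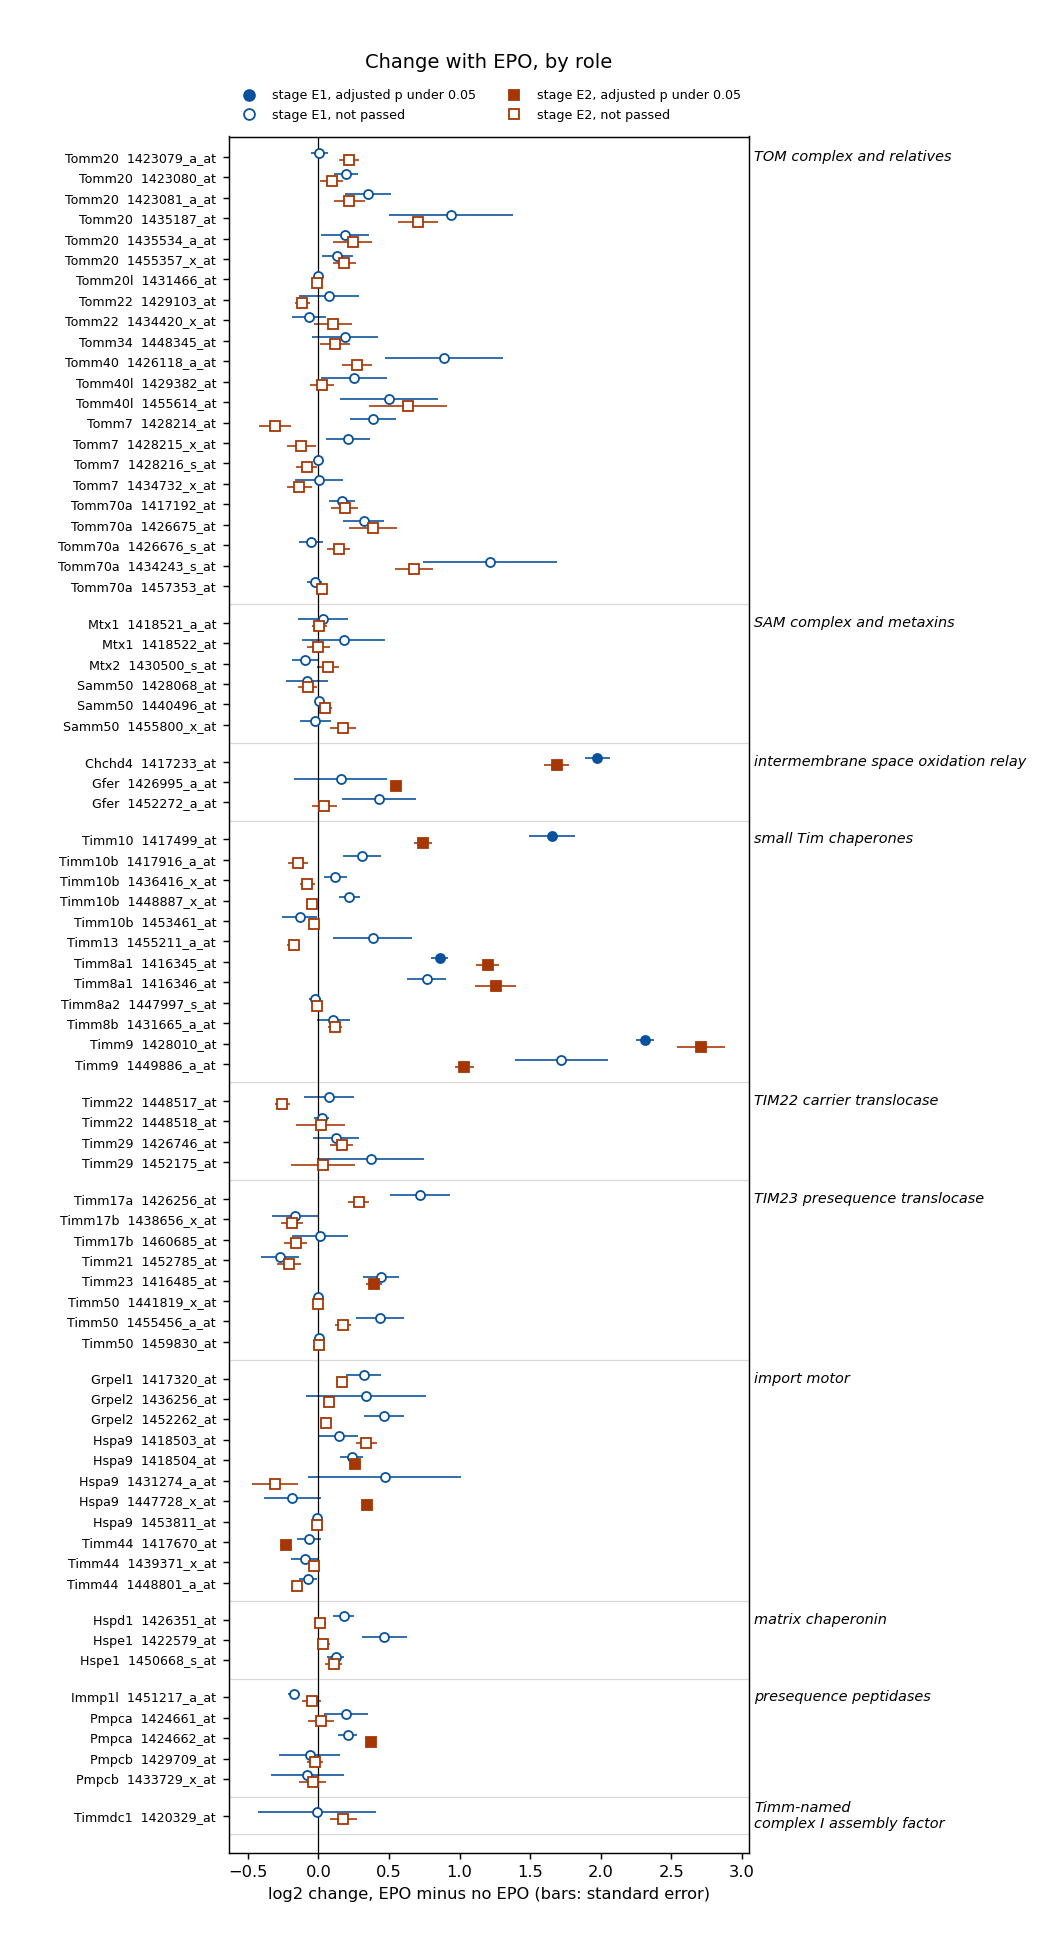
Log2 change with EPO (EPO-challenged minus unchallenged, horizontal axis) of each of the 75 member probe sets, grouped by role, in stage E1 (blue circles, 8 arrays) and stage E2 (brown squares, 6 arrays). Bars are standard errors and filled symbols passed an adjusted p under 0.05. The filled symbols furthest to the right belong to Timm9, Chchd4, Timm10 and Timm8a1, and no TOM, SAM or TIM22 probe set is filled in either stage.

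Among the 12 small Tim probe sets (7 genes), 3 were called higher in stage E1 and 5 in stage E2, all of Timm8a1, Timm9 and Timm10. The other members of that family, Timm8a2, Timm8b, Timm10b and Timm13, did not pass in either stage. For Timm13, the partner of the Timm8 proteins, the log2 change was 0.38 (SE 0.28) in stage E1 and -0.17 (SE 0.05) in stage E2. In the disulfide relay, 1 of 3 probe sets passed in E1 and 2 in E2. limma called 0 of the 22 probe sets of the TOM complex and its relatives in either stage (1 in E1 and 5 in E2 at an unadjusted p under 0.05), with log2 changes from -0.07 to 1.22 in E1 and -0.31 to 0.71 in E2, and the 6 SAM and metaxin probe sets lay within 0.18 of 0 in both. The 4 TIM22 probe sets and the 3 of the matrix chaperonin did not pass either (limma, with 1 of these 7 at an unadjusted p under 0.05 in each stage). The errors of Tomm20 (1435187_at), Tomm40 and Tomm70a (1434243_s_at) left rises of 2-fold or more possible in stage E1. The other probe sets of Tomm20 had log2 changes of 0.0072 to 0.35 there, and the other probe sets of Tomm70a -0.05 to 0.32. In stage E2, limma's array weights called Tomm70a higher (1434243_s_at, log2 change 0.78, limma adjusted p = 0.039). The replicate number as a block called Tomm40l higher in stage E2 (1455614_at, log2 change 0.63, limma adjusted p = 0.044).

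The stage by EPO interaction asks whether the response differed between stages. limma called 0 member probe sets (0.415% of all probe sets were called). At an unadjusted p under 0.05, 4 members were higher and 5 lower, where 1459 and 1777 of all 45037 probe sets were. For Timm10 the E2 response was smaller by 0.91 on the log2 scale (95% interval of the difference -1.36 to -0.46, limma adjusted p = 0.114), and limma's array weights brought this past the test (difference -0.85, limma adjusted p = 0.0059). For Chchd4 the difference was -0.29 (-0.58 to 0.0062), for Timm9 0.40 (0.03 to 0.77) on 1428010_at and -0.69 (-1.57 to 0.19) on 1449886_a_at, and for Timm8a1 (1416345_at) 0.34 (0.11 to 0.57), and none passed after adjustment (limma adjusted p at least 0.30). These intervals do not show that the stages respond alike. Quantile normalization called 9 member probe sets higher, among them Timm9 (1428010_at), both Timm8a1 probe sets and Chchd4, whose difference turned to 2.05. It gives every array the same spread, and the centred values spread by an SD of 0.259 to 0.295 over probe sets on E2 arrays and 0.633 to 0.736 on E1 arrays, so that it widens E2 differences by construction. Across the 75 probe sets the changes in the 2 stages had a Pearson's r of 0.82, and over the 69 outside the 4 leading genes 0.51. This is a description across probe sets, several of which read the same gene.

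**Figure D3:**
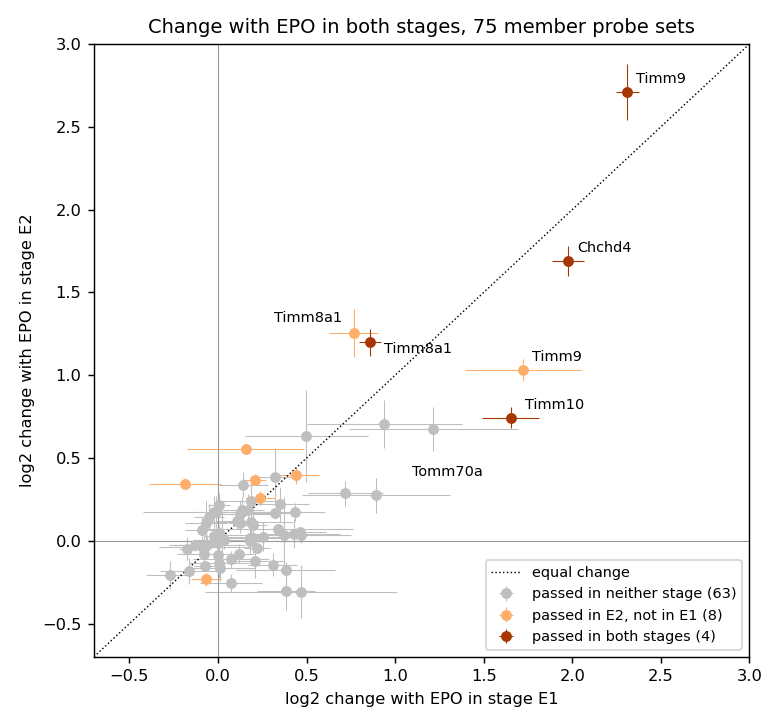
Log2 change with EPO in stage E1 (horizontal axis) against stage E2 (vertical axis) for the 75 member probe sets, with standard errors and a dotted line of equal change. Timm9, Chchd4, Timm10 and Timm8a1 lie away from the cloud around 0, as does Tomm70a (1434243_s_at, 1.22 in stage E1), which passed in neither stage. Timm10, Chchd4 and Timm9 on 1449886_a_at lie below the line of equal change.

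Between stages without EPO, 34 of the 75 member probe sets (45.3%, 23 of 37 genes) were called lower in E2 than in E1 and 0 higher, where 10.8% of all probe sets were called lower and 10.1% higher. At an unadjusted p under 0.05, 1 member was higher, and the adjusted t-test of the methods called none higher. The replicate number as a block called Tomm7 higher (1428214_at, log2 change 0.49, limma adjusted p = 0.012). Array weights called Timm29 higher (1452175_at, log2 change 0.92, limma adjusted p = 0.031). Quantile normalization gave 33 lower and 5 higher, with Tomm7, Tomm40l, 2 probe sets of Timm17b and a Gfer probe set on the higher side. The median member change was -0.23 on the log2 scale, beside -0.03 over all probe sets. Of the 75, 18 lay above 0, where 27.8% of all probe sets did. Among the 22519 probe sets with the larger SD over the 14 arrays, where 66 members lie, 48.5% of members and 19.1% of all probe sets were called lower. With EPO, 33 member probe sets (21 genes) were called lower and 0 higher (0 at an unadjusted p under 0.05), where 12% of all were called lower and 10.3% higher, and the median member change was -0.44. Quantile normalization gave 27 lower and 1 higher (Timm9 1428010_at) there. These comparisons use the same arrays as those of EPO and are not independent of them.

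Stage differed here together with culture day, selection and cell makeup, which cannot be told apart. The 14 myeloid marker probe sets (12 genes) averaged 4.26 to 4.62 on the unchallenged and 4.06 to 4.38 on the EPO-challenged E1 arrays, and -0.11 to -0.06 on all E2 arrays, in deposited log2 units. Their median change from E1 to E2 without EPO was -4.02, and 9 of the 12 genes were called lower, Mpo (-9.47) and S100a8 (-9.49) among them. Of 6 mast cell genes, 2 were lower, of 5 megakaryocyte genes 5 were higher, and of 8 erythroid genes 6 were higher (Slc4a1, Klf1, Tfrc, Epor, Gata1 and Alas2) and Kit was lower. limma called no B or T cell marker (2 probe sets of each list at an unadjusted p under 0.05, all lower). The part of these markers' cells in the stage difference of import genes was not tested, and in bulk RNA fewer cells of a type and less RNA per cell cannot be told apart.

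In the matrix, all 3 chaperonin probe sets and 7 of the 11 motor probe sets were lower in E2 without EPO. Hspd1, the Hsp60 chaperonin, read 1.14, 1.39, 1.32 and 1.37 on unchallenged E1 arrays and -0.04, -0.02 and -0.01 on unchallenged E2 arrays, 2.51-fold lower (log2 change -1.33 ± 0.07, limma adjusted p = 2.4e-07). Its co-chaperonin Hspe1 (1450668_s_at) went from 0.87, 1.08, 1.10 and 1.0 to -0.11, -0.15 and -0.02 (2.16-fold lower, log2 change -1.11 ± 0.06, limma adjusted p = 4.7e-07). Hspa9 (1418504_at) went from 0.93, 1.18, 1.11 and 1.27 to -0.29, -0.28 and -0.16 (2.58-fold lower, log2 change -1.37 ± 0.08, limma adjusted p = 4.0e-07). Of the 4 other Hspa9 probe sets, 2 were lower and 2 did not pass (1431274_a_at, -0.09, and 1453811_at, -0.02). On the 3 probe sets given by array the lowest E1 array was above the highest E2 array by more than the spread within a group. With EPO the same 3 probe sets were 2.82-fold (Hspd1), 2.18-fold (Hspe1) and 2.54-fold (Hspa9) lower in E2. Timm44 was lower on all 3 probe sets, by 0.62 to 0.79 on the log2 scale. Grpel2, an exchange factor of the motor Hsp70, was lower on 1 of 2 probe sets (log2 change -0.82 ± 0.12, limma adjusted p = 0.00050), whereas its relative Grpel1 did not pass (log2 change 0.04, limma adjusted p = 0.80).

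Between stages, the 4 genes that led with EPO gave varied values. Timm8a1 was lower in E2 by 3.93-fold without EPO (log2 change -1.97 ± 0.07, limma adjusted p = 2.4e-08) and by 3.11-fold with it (log2 change -1.63 ± 0.07, limma adjusted p = 8.0e-08). Chchd4 was 3.0-fold lower without EPO (log2 change -1.58 ± 0.09, limma adjusted p = 5.8e-07) and 3.66-fold lower with it. With EPO, Chchd4 on the 3 E2 arrays read 0.11 to 0.35, beside -0.11 to 0.29 on the 4 unchallenged E1 arrays. Timm9 on 1428010_at did not pass between stages in either condition (log2 change -0.24 and 0.16, limma adjusted p 0.17 and 0.33). With EPO it was called higher in E2 after quantile normalization (log2 change 2.05, limma adjusted p = 1.0e-05) and without EPO-challenged E2 replicate 1 (0.34, limma adjusted p = 0.0084). The other probe set, 1449886_a_at, was called lower in both conditions (log2 change -1.13 and -1.82), the first of which ended without unchallenged E2 replicate 1 (limma adjusted p = 0.052). The 2 Timm9 probe sets therefore gave different stage results. Timm10 had a log2 change of 0.04 without EPO (limma adjusted p = 0.83, but -1.68 and called after quantile normalization) and of -0.87 with EPO (SE 0.14, limma adjusted p = 0.00096).

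At the outer membrane, Tomm70a (1426676_s_at) went from 1.11, 0.91, 0.75 and 0.77 to -0.01, -0.23 and -0.10, 2.0-fold lower in E2 (log2 change -1.0 ± 0.09, limma adjusted p = 8.6e-06), and 3 of its 5 probe sets passed. Tomm20 was lower on 3 of 6 probe sets and Tomm22 on 1 of 2 (1434420_x_at, log2 change -1.14). Tomm40, the channel, did not pass (log2 change -0.20 ± 0.37). All of the SAM group, Samm50, Mtx1 and Mtx2, were lower on at least 1 probe set (4 of 6). In the inner membrane, Timm21 (log2 change -1.22) and Timm23 (-0.77) were lower, whereas the 4 TIM22 probe sets and those of Timm17a, Timm17b and Timm50 did not pass, their log2 changes lying between -0.07 and 0.77. The presequence peptidases Pmpcb (1429709_at, -1.19), Immp1l (-0.56) and Pmpca (1424662_at, -0.30) were each lower on 1 probe set. Timmdc1, which is named like the translocases but assembles respiratory complex I, was lower as well (log2 change -1.14, limma adjusted p = 0.045).

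**Figure D4:**
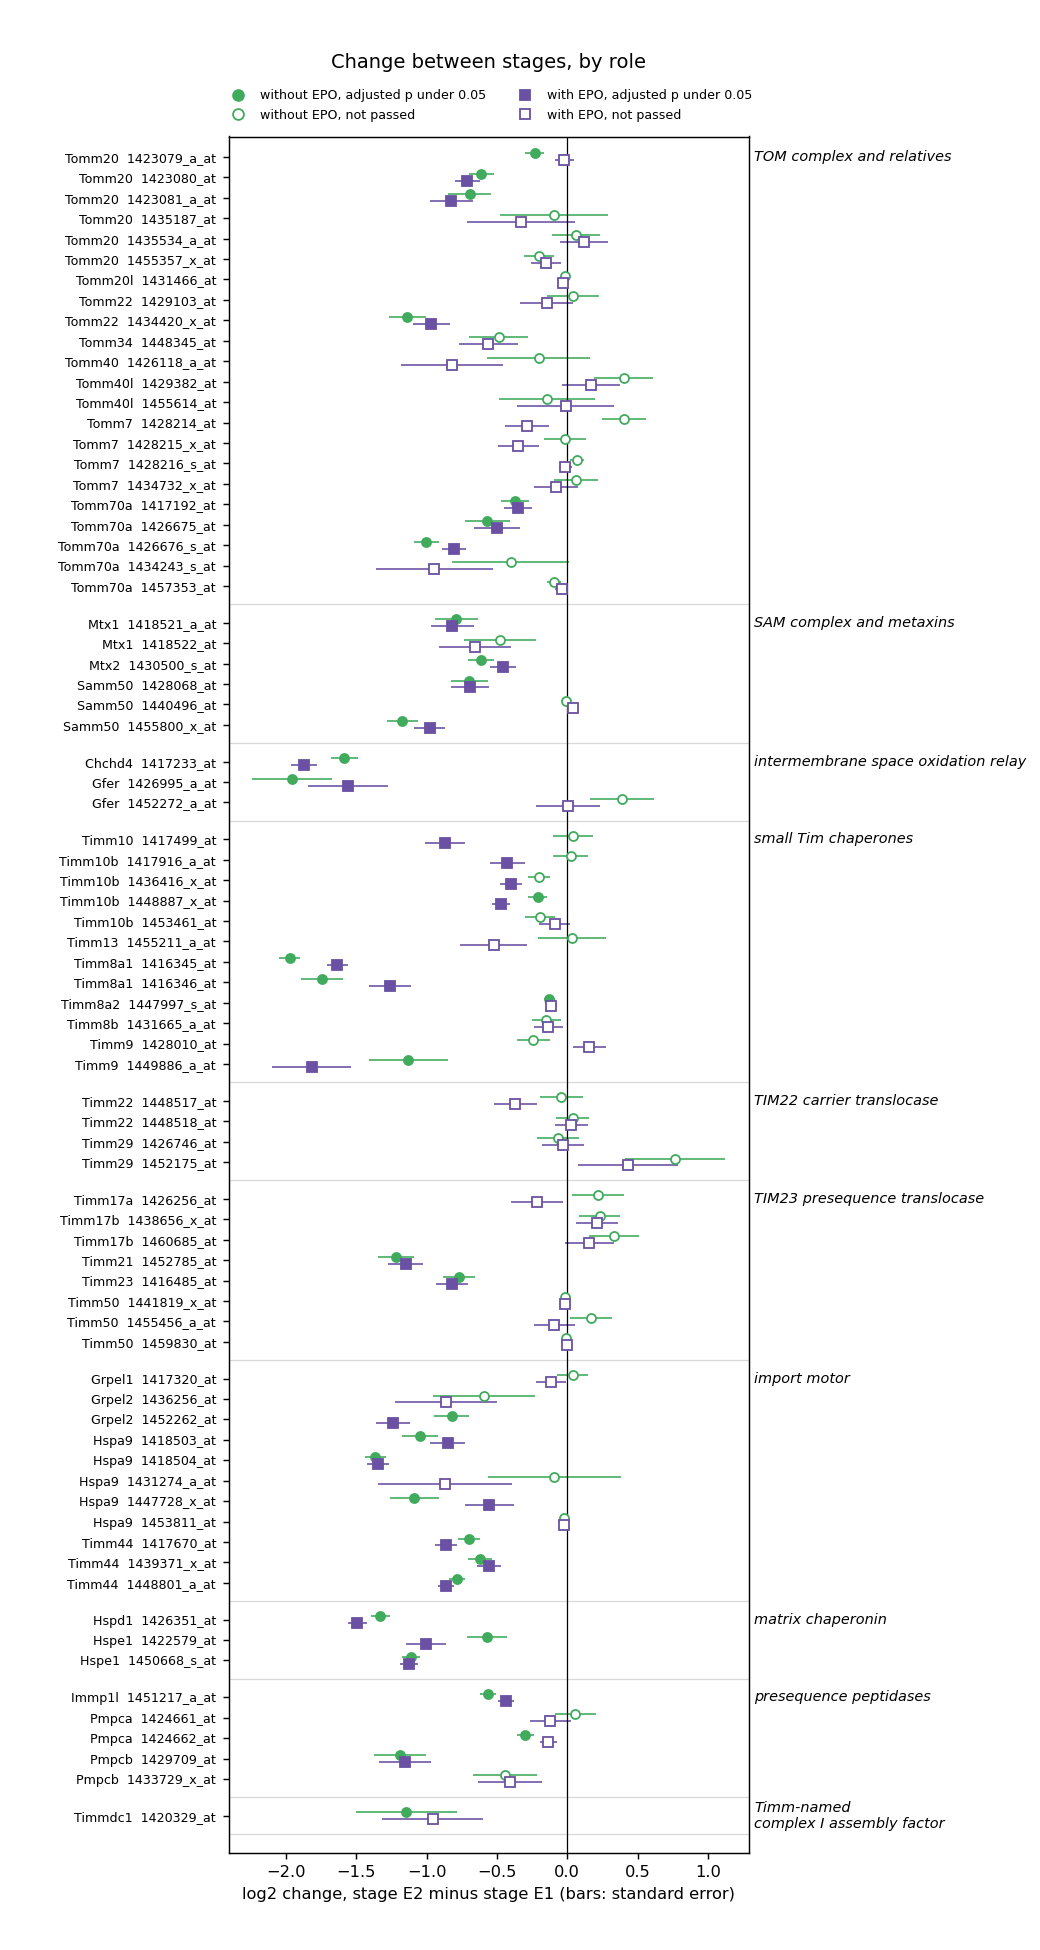
Log2 change between stages (E2 minus E1, horizontal axis) of the 75 member probe sets by role, among arrays without EPO (green circles) and with EPO (purple squares), from the joint fit of 14 arrays. Bars are standard errors and filled symbols passed an adjusted p under 0.05. Every filled symbol lies left of 0, and the TIM22 rows hold none.

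**Figure D5:**
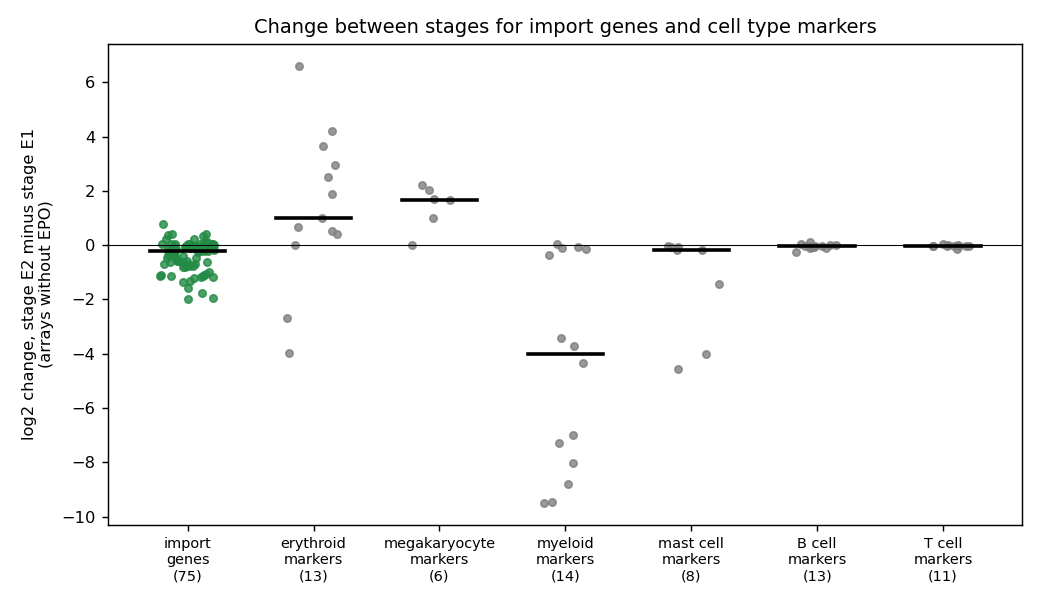
Log2 change from stage E1 to E2 without EPO (vertical axis) of the 75 member probe sets (green) beside the probe sets of the cell type marker lists (grey, number of probe sets in brackets). Each point is a probe set and the bar is the median, which is -0.23 for the import genes and -4.02 for the myeloid markers.

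Neighbouring gene groups were read in the same fits. The first held import, insertion and processing genes outside the rule (14 genes with a probe set of their own), where with EPO limma called Agk, a lipid kinase of the TIM22 complex, on 1 of its 3 probe sets in stage E1 (1431655_a_at, log2 change -1.10 ± 0.11, limma adjusted p = 0.010, and 0.083 when blocked by replicate number). The 2 other Agk probe sets read 0.13 and 0.0012. In stage E2 it called Oxa1l, the inner membrane insertase, on 1 of 3 probe sets (log2 change -0.51 ± 0.07, limma adjusted p = 0.025). Both were lower, and at an unadjusted p under 0.05 the list held 1 lower probe set in E1, and 2 higher and 3 lower in E2. Without EPO, 8 of these genes were lower in stage E2, Bcs1l, Agk, Dnajc15 and Cox18 among them, and 2 were higher, led by Ghitm. By probe set, 8 of 29 were called lower and 3 higher, where 10.8% of all probe sets were called lower and 10.1% higher. Of 15 twin-cysteine proteins that the Chchd4 relay imports, limma called 0 with EPO in stage E1 (3 of 27 probe sets at an unadjusted p under 0.05). In stage E2 it called only the complex I subunit Ndufb7 (log2 change -0.15, limma adjusted p = 0.015), whose other probe set read -0.06 and did not pass. At an unadjusted p under 0.05, 1 of the 27 was higher and 7 were lower in E2, where 3517 and 3899 of all 45037 probe sets were. Between stages without EPO this group was split, with 7 genes lower and 5 higher, and Coa5 and Chchd7 counted on both sides through different probe sets. By probe set, 9 of 27 were called lower and 6 higher, beside the same shares of all probe sets.

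Of 9 genes of the cristae-organizing complex or otherwise of the cristae, Chchd3 was called higher with EPO on 1 probe set in stage E2 (log2 change 1.39 ± 0.16, limma adjusted p = 0.019). Its other probe sets read -0.07 and -0.10. Micos13 was called lower on 1 probe set in stage E2 (log2 change -0.18, limma adjusted p = 0.031), and its other probe set read -0.01. limma called 0 of 11 mitochondrial protease genes (22 probe sets) with EPO in either stage, while 2 probe sets in E1 and 6 in E2 had an unadjusted p under 0.05. Among 12 regulators of mitochondrial biogenesis, Myc was called in both stages, with a log2 change of 2.59 in E1 (SE 0.26, limma adjusted p = 0.0085, or 0.090 when blocked by replicate number) and 3.35 in E2 (SE 0.06, limma adjusted p = 0.00037). The coactivator Pprc1 was called higher in stage E2 (log2 change 0.32, limma adjusted p = 0.029). Its change in stage E1 was larger but did not pass (log2 change 1.14 ± 0.23, limma adjusted p = 0.094). In stage E2, Nrf1 (1445914_at, -1.0) and Tfb1m (-0.34) were lower on 1 probe set each. The other Nrf1 probe sets read 0.03, -0.11 and 0.31 and the other Tfb1m probe set 0.10, and none of these passed. Of 8 cytosolic chaperone genes that carry preproteins, limma called 0 with EPO in stage E1 (6 of 22 probe sets at an unadjusted p under 0.05). In stage E2, Dnaja1 (log2 change 0.50), Hspa8 (1.87 on 1431182_at) and Dnaja2 (0.57) were called higher. The calls fell on 4 of the 22 probe sets, where 2.54% of all were called higher, and the other probe sets of these genes did not pass. At an unadjusted p under 0.05, 8 were higher and 2 lower in E2. What ties these groups to the import genes was not tested.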

How the data were processed

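Per the study's methods and the labels, the authors read the arrays with GCOS and then applied GC-RMA, a background correction, normalization and summary of probe sets, within GeneSpring. The deposited values are log2 values (the base is inferred, since GC-RMA gives log2) with 1 constant per probe set subtracted, a step not described in the sources used here. In 35150 of the probe sets (78%), 2 arrays lay equally far above and below 0, to within 2e-06. Array medians ran from -0.023 to 0.031.

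Of 45101 probe sets, 64 controls were left out. Gene names came from the platform annotation, in which 34945 of 45037 probe sets name 1 gene, 932 several and 9160 none, and the Entrez IDs of all 75 members matched a current gene. limma 3.58.1 (R 4.3.3) was fitted to all 45037 probe sets, two-sided, with Benjamini-Hochberg adjustment, on the 8 arrays of E1, on the 6 of E2, and jointly on all 14 for the interaction and the stage comparisons. The calculations were tested on simulated data. No filter on low levels was possible. The median SD between replicates was 0.0934 (no EPO) and 0.0729 (EPO) in E1, and 0.0317 and 0.0343 in E2.

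The members, gene lists and motifs were chosen with earlier results of these data known. Any member gene could be named. Values by array could be given for member probe sets called with EPO, and between stages for up to 8 called probe sets of smallest p with no overlap. A gene counts as called where at least 1 of its probe sets is. From the neighbouring lists, at most 4 called genes of smallest p per comparison were named, and others only where a count required it.

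In E1, arrays with the same replicate number in the labels deviated together from their group means (correlations 0.195, 0.187, 0.173 and 0.152), all above 0.1, so the numbers were taken to pair them in the blocked fit. The calls given here are from the fit without a block, since the methods compare the groups unpaired. The block was an alternative, which gave 3 calls in E1. Unchallenged replicate 4 correlated best with EPO-challenged replicate 3 (0.203). Alternatives were quantile normalization, centring each array on its median, robust empirical Bayes, array weights, the replicate number as a block, probe sets of larger SD, a fold of 2, genes by the mean of their probe sets, fits on other sets of arrays, the methods' one-tailed t-test, and each array left out in turn.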

Additional observations from a re-analysis of the deposited data

Results flagged for a closer look

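In 3 of 34 groups of 4 arrays examined for the 17 probe sets whose values by array could be given, 1 array lay far from the other 3, where chance gives about 5% of groups. For Gfer (1426995_a_at), unchallenged E1 replicate 1 read 2.25 while the others read 1.08 to 1.24, so that its gap was 0.863 of the group's range. For Hspa9 (1447728_x_at), unchallenged E1 replicate 2 read 0.235 against 0.802 to 0.855 (gap 0.914 of the range), and EPO-challenged E1 replicate 1 read 0.956 against 0.292 to 0.387 (gap 0.856 of the range). Neither probe set was called with EPO in stage E1, and the cause of these values was not tested.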

How the results depend on the processing

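Among the probe sets followed one by one, no alternative reversed a called change. Quantile normalization turned changes that were not called, in the interaction for Chchd4 (2.05, called), Timm10 (0.54) and Timm9 1449886_a_at (0.93), and between stages without EPO for Timm10 (-1.68, called). Outside that set it also turned the interaction of Timm23 (0.70, called). The Timm10 stage change, 0.04 in the fit used here, was -0.026 with array weights and ran from -0.10 to 0.11 with single arrays left out. These probe sets (4, 12, 6, 11 and 12 in the 5 comparisons) kept their direction and side of the threshold in 70 of 72 alternative fits for EPO in E1, 142 of 192 in E2, 119 of 126 for the interaction, and 178 of 187 and 199 of 204 for the stages without and with EPO. For EPO in E1, where 4 members were called, array weights gave 7 calls, the fit on all 14 arrays 9 and the unadjusted t-test of the methods 25. In E2, where 12 were called, a fold of at least 2 gave 5, the fit on all 14 arrays 6 and the unadjusted t-test 29. For the interaction, with 0 calls, quantile normalization gave 9 and array weights 1 (Timm10). Between stages, a fold of at least 2 left 16 of 34 calls without EPO and 12 of 33 with it, and gene means gave 21 lower genes without EPO.

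With single arrays left out, counts ran from 4 to 5 for EPO in E1, 7 to 10 for EPO in E2, 0 throughout for the interaction, 27 to 32 between stages without EPO and 29 to 34 with it. The replicate number as a block gave 3 calls in E1 (all among the 4) and 4 in E2. Of those in E2, 3 were among the 12 (of Timm9, Timm8a1 and Gfer) and the other was Tomm40l, called higher. Chchd4 and Timm10 among others were not called in E2 with the block (limma adjusted p 0.060 and 0.081). In E2, same-numbered arrays correlated at -0.061, -0.057 and -0.016, and none of the unchallenged arrays correlated best with its own number. Between stages no pair of same-numbered arrays reached 0.1, and without EPO 2 of 3 correlated best with their own number. Between stages the block gave 34 calls without EPO (33 shared, the other being Tomm7, called higher) and 35 with it (32 shared), and none for the interaction. The E2 calls that ended under most alternatives were those of Timm44, Hspa9 (1418504_at) and Timm23. Except where construction is named, the cause was not tested.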

Other observations

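The probe set shared by Tomm5, a small TOM subunit, and the predicted gene Gm8069 read 0.91, 1.14, 1.45 and 1.54 on unchallenged E1 arrays and 2.42, 1.92, 2.21 and 2.24 with EPO, with no overlap (log2 change 0.94 ± 0.17, limma adjusted p = 0.061). In stage E2 its log2 change with EPO was 0.08 (SE 0.06, limma adjusted p = 0.66). From E1 to E2 it was lower by -1.33 on the log2 scale without EPO and by -2.19 with EPO. The 2 probe sets shared by Tomm6 and Prickle4 and the 3 shared by Dnajc19 and its pseudogene did not pass with EPO in either stage. Which of the paired genes these probe sets read was not tested.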
